A study of Mus musculus with 18 samples.

Results

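The circadian clock genes are described here in the liver of mice carrying the Rps2-A226Y ribosomal mutation. The 10 genes were taken by name and not by a threshold on their values: the activators *Arntl*, *Clock* and *Npas2*, the repressors *Per1*, *Per2* and *Per3*, the nuclear receptors *Nr1d1* and *Nr1d2*, and the rhythmic transcription factor genes *Dbp* and *Bhlhe40*. All 10 were found among the 22524 Ensembl genes counted in each liver, and 9 of them were among the 13353 genes with enough reads to be tested. RNA was sequenced from 10 A226Y and 8 WT livers, with 1 library per mouse. All 18 mice were females on the C57BL/6 strain, 15 months old, and both genotypes carried the CMV-Cre transgene, which is active in most tissues. A226Y mice were heterozygous for a knock-in allele that encodes the mutant ribosomal protein once a floxed STOP cassette has been removed. Removal was incomplete in these animals, so that each was a mosaic of cells with the mutant allele and cells in which the cassette still silenced that copy of *Rps2*. WT mice had no targeted allele. The hour at which each liver was taken was not given in the sources used here.

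The molecular clock is a loop of transcription and feedback that runs in nearly every cell. ARNTL (also called BMAL1) pairs with CLOCK or NPAS2 and switches on the Per, Cry, Nr1d, *Dbp* and *Bhlhe40* genes, and PER and CRY proteins then return to the nucleus and silence that pair. REV-ERB proteins, encoded by *Nr1d1* and *Nr1d2*, repress *Arntl* and other genes that peak near dawn, while ROR proteins activate the same sites. In mouse liver these genes peak at different hours, so each liver holds a snapshot of the clock at one time of day. Genes whose mRNA is highest near the end of the dark phase (*Arntl*, *Clock*, *Npas2*) are called the dawn group below, those highest in the light phase (*Nr1d1*, *Nr1d2*, *Dbp*, *Per3*) the day group, and those highest around the start of the dark phase (*Per1*, *Per2*, *Bhlhe40*) the dusk group.

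The short DNA elements that this loop acts through are shown because they tie members of different phase to one another. RefSeq gave promoter windows for 8 of the 10 members (12 windows on GRCm38.p6, each from 250 bases before to 50 bases after a start). No window was given for *Per2* and *Bhlhe40*. Both strands were searched for the E-box CACGTG and the E′-box CACGTT, which ARNTL and CLOCK bind, the D-box TTANGTAA, which DBP binds, the core TAGGTCA, which ROR and REV-ERB proteins bind, and the cAMP response element TGACGTCA. No letters of one searched motif were shared with another at the sites found. Each stretch of 30 bases below runs 5′ to 3′ on the strand of the gene, with the motif in capitals. The *Arntl* stretch lies at chr7:113207530-113207559 (+ strand), the *Per1* stretch at chr11:69098771-69098800 (+), the *Per3* stretches at chr4:151044852-151044881 and chr4:151044805-151044834 (−) and the *Nr1d1* stretch at chr11:98775388-98775417 (−).
Arntl, ROR and REV-ERB core: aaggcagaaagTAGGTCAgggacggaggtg
Per1, E-box: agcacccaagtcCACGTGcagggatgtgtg
Per3, first D-box: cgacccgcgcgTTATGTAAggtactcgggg
Per3, second D-box: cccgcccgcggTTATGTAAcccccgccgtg
Nr1d1, E′-box on the other strand: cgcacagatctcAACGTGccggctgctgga

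Distances are from the RefSeq start of the window, which can differ from the outer end of the GENCODE gene model, given with each gene below. The annotation used for counting may place that end elsewhere. *Arntl* and *Per1* each had 2 windows, and 1 of the 2 held the motif. The *Arntl* core began 30 bases past the start of its window and 76 bases past the outer end of the gene model. The *Per1* E-box lay 166 bases before a start that is internal to the gene model, 3566 bases past its outer end. The *Per3* D-boxes lay 205 and 158 bases before the RefSeq start, which is also the end of the gene model. The *Nr1d1* E′-box lay 28 bases before the RefSeq start and 72 bases before the end of the gene model. No window of *Clock*, *Npas2*, *Nr1d2* or *Dbp* held any of these letters, and no member's window held the cAMP response element. Among all 32817 RefSeq windows of the same length, 7.15% held the E-box, 4.69% the E′-box, 2.32% the D-box, 2.61% the ROR and REV-ERB core and 1.79% the cAMP response element. A match is a description of the letters and was not tested as a site.

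Total counts ranged from 23850565 to 62126131 per liver. *Rps2*, the targeted gene, measured 68.6 ± 13.3 CPM (counts scaled to the same library total; SD, n = 10) in the A226Y livers, compared with 114 ± 13.03 CPM (SD, n = 8) in the WT livers, a log2 fold change of −0.73 (SE 0.11, adjusted p = 0.000772). The counts do not separate the mutant from the normal transcript. Over all tested genes, 1910 were called at an adjusted p under 0.05 (edgeR quasi-likelihood test with Benjamini-Hochberg adjustment over the 13353 genes), 971 higher and 939 lower, with 50.8% of calls higher under this scaling and 68.0% higher when only the library size was used. The hepatocyte markers *Alb*, *Apoa1*, *Ttr*, *Tat* and *Cps1* summed to between 69040 and 140300 CPM in A226Y and between 81290 and 166900 CPM in WT, and 2 of the 5 were called, both higher (*Tat* and *Cps1*). The leukocyte and Kupffer cell markers *Ptprc*, *Cd68* and *Clec4f* summed to between 90.3 and 274 CPM in A226Y and between 135 and 291 CPM in WT, none was at 0, and 1 of the 3, *Clec4f*, was called lower. No marker of sinusoidal endothelium, bile duct or stellate cells was called, 2 genes of each having been examined, and their sums overlapped between genotypes. The part of these shifts in the clock gene results was not tested, and in whole liver RNA fewer cells of a type and less RNA per cell cannot be told apart. One A226Y liver, animal 29, stood far from the others on the second principal component, and WT animal 33 was next. Animal 29 also had the lowest *Alb* (48040 CPM) and *Ttr* (3080 CPM) and the highest *Ptprc* (25.1 CPM), *Cd68* (21.4 CPM) and *Clec4f* (227 CPM) of the A226Y livers, and the part of this in its clock gene values was not tested.

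*Clock* rose in the A226Y liver and *Bhlhe40* fell, and the other 7 tested members did not pass the test. *Clock* was 1.53-fold higher, with no overlap between genotypes. The call on *Bhlhe40* depended on single mice. In all, 2 of the 9 tested members were called beside 14.3% of all tested genes, 1 higher (7.27% of all genes) and 1 lower (7.03%), so that the number of calls was close to that over the whole transcriptome and says nothing particular about clock genes. At an unadjusted p under 0.05, 5 of 9 members passed, beside 29.6% of all genes. The median log2 fold change of the 9 was 0.21, beside −0.004 over all genes, and 5 had positive and 4 had negative values. Every A226Y mouse lay above every WT mouse for 1 member, *Clock*, beside 0.352% of all tested genes, and below every WT mouse for none, beside 0.285%.

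**Figure D1:**
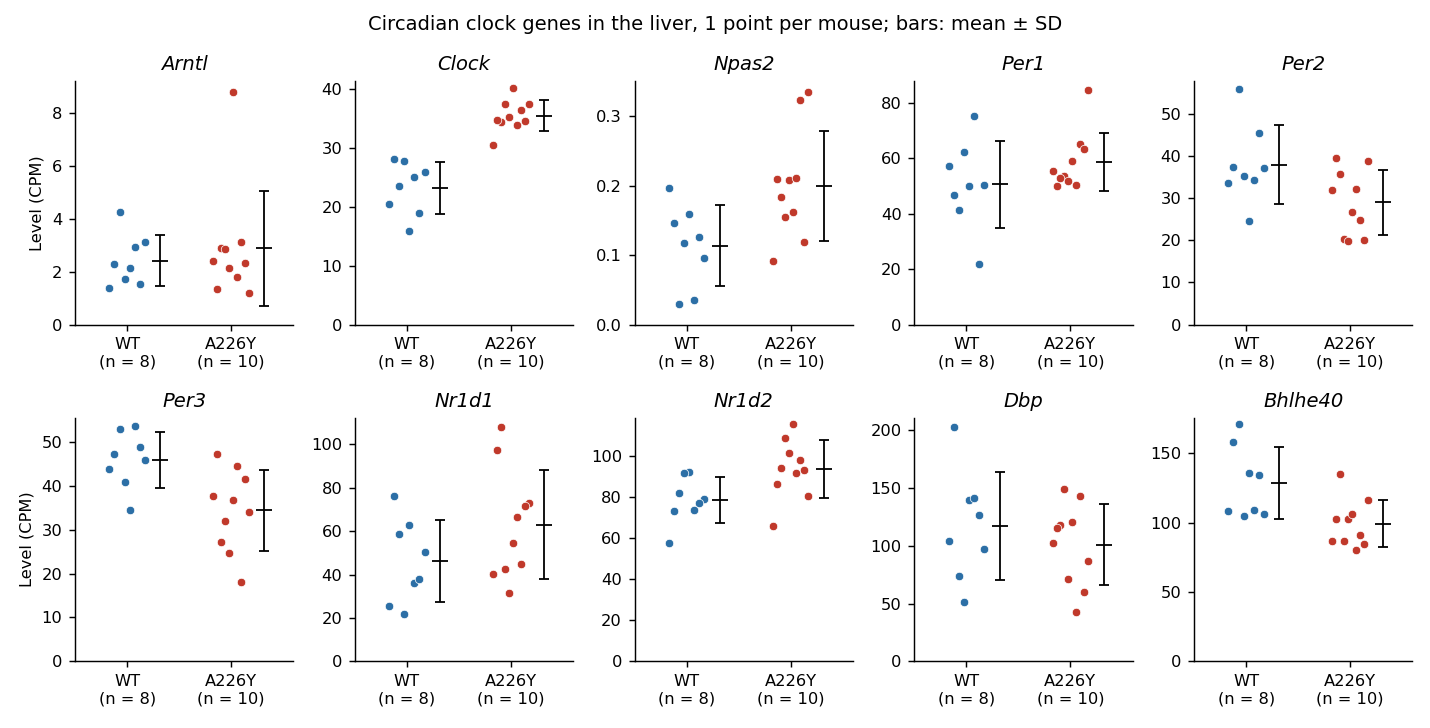
Level of each of the 10 clock genes in CPM (vertical axes, from 0) for the 8 WT and 10 A226Y livers, with 1 point per mouse and bars for the mean ± SD. The A226Y points for *Clock*, from 30.4 to 40.1 CPM, all lie above the highest WT point at 28.1 CPM, while the genotypes overlap for the other 9 genes.

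*Clock* (chr5:76209868-76304792 on GRCm38, minus strand) encodes the DNA-binding partner of ARNTL and was the member with the clearest difference. In WT livers it ranged from 15.98 to 28.1 CPM with a median of 24.3, and in A226Y livers from 30.4 to 40.1 CPM with a median of 35.0. All 10 A226Y livers were thus above all 8 WT livers. The mean was 35.5 ± 2.61 CPM (SD, n = 10) against 23.2 ± 4.38 CPM (SD, n = 8), a log2 fold change of 0.61 (SE 0.09, edgeR adjusted p = 0.000932). The two-sided exact permutation test over the 43758 divisions of the mice gave p = 2.3e-05, the smallest it can give. Between 508 and 2172 reads per liver lay behind these values. The difference stayed past the threshold in each of the 29 other settings tried, with log2 fold changes from 0.45 to 0.65, and without animal 29 and WT animal 33 it was 0.59 (adjusted p = 0.00176).

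*Arntl* (chr7:113207465-113314126, plus strand), whose loss alone stops the clock, was low in all livers. In WT livers it ranged from 1.39 to 4.24 CPM with a median of 2.21, and in A226Y livers from 1.198 to 8.79 CPM with a median of 2.36. The genotypes overlapped almost completely, and 1 A226Y liver, animal 29, stood at 8.79 CPM while the next highest was at 3.12 CPM. The log2 fold change was 0.25 (SE 0.33, edgeR adjusted p = 0.645), it turned to −0.12 (adjusted p = 0.755) without animal 29, and it was 0.42 (adjusted p = 0.438) without WT animal 21. Its reads numbered 39 to 299 per liver. *Npas2* (chr1:39193731-39363236, plus strand), which can stand in for *Clock*, had only 1 to 11 reads per liver and was not tested in the fit. It measured 0.200 ± 0.079 CPM in the 10 A226Y livers (SD) and 0.114 ± 0.058 CPM in the 8 WT livers (SD), with a two-sided exact permutation p = 0.0170 on log2 CPM. At this depth 1 read is a large part of each value, and the genotypes overlapped.

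The Period genes, which encode the repressors that close the loop, did not pass the test and did not share a direction. *Per3* (chr4:151003652-151044665, minus strand) ranged from 34.4 to 53.7 CPM in WT with a median of 46.5, and from 18.1 to 47.2 CPM in A226Y with a median of 35.4. Of the 10 A226Y livers, 9 lay below the WT mean and 5 lay below every WT liver. Its log2 fold change was −0.42 (SE 0.14, edgeR adjusted p = 0.0570, two-sided exact permutation p = 0.0106). It passed the threshold without A226Y animal 3, 11 or 29 or without WT animal 21, with adjusted p from 0.0373 to 0.0468, and also with DESeq2, limma-voom and an offset for transcript length, with adjusted p from 0.0242 to 0.0471.

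*Per2* (chr1:91415982-91459324, minus strand) ranged from 24.5 to 55.9 CPM in WT with a median of 36.2, and from 19.7 to 39.4 CPM in A226Y with a median of 29.3. Only 2 A226Y livers exceeded the WT mean, 3 fell below every WT liver, and 2 WT livers lay above every A226Y liver. For *Per2* the log2 fold change was −0.39 (SE 0.16, edgeR adjusted p = 0.104, two-sided exact permutation p = 0.0391). *Per1* (chr11:69095217-69109960, plus strand), which responds quickly to hormones and feeding as well as to the clock, ranged from 21.9 to 75.0 CPM in WT with a median of 50.3, and from 49.9 to 84.6 CPM in A226Y with a median of 54.4. Its lowest value was that of WT animal 14 and its highest that of A226Y animal 29. For *Per1* the log2 fold change was 0.21 (SE 0.16, edgeR adjusted p = 0.404), and it was 0.10 without WT animal 14 and 0.14 without A226Y animal 29. It took the opposite sign, −0.16, when surrogate variables were fitted.

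The REV-ERB genes both had positive values that missed the threshold. *Nr1d2* (chr14:18204054-18239127, minus strand) ranged from 57.5 to 92.2 CPM in WT with a median of 78.0, and from 65.7 to 116 CPM in A226Y with a median of 93.6. Of the 10 A226Y livers, 6 lay above every WT liver and the lowest was animal 29. Its log2 fold change was 0.26 (SE 0.10, edgeR adjusted p = 0.0874, two-sided exact permutation p = 0.0293). It passed the test without animal 29 (0.30, adjusted p = 0.0204), without animals 29 and 33 (adjusted p = 0.0334) and with library size scaling (0.30, adjusted p = 0.0456). *Nr1d1* (chr11:98767932-98775333, minus strand) ranged from 21.9 to 76.3 CPM in WT with a median of 44.2, and from 31.4 to 108 CPM in A226Y with a median of 60.7. The ranges overlapped over most of their length, and the log2 fold change was 0.45 (SE 0.26, edgeR adjusted p = 0.252). The exons of *Nr1d1* share 263 bases, 8.55% of their length, with *Thra* on the opposite strand, and the strand used in counting was not stated, so that some of its reads may belong to *Thra*.

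*Bhlhe40* (chr6:108660629-108666925, plus strand) encodes DEC1, a repressor that competes with ARNTL and CLOCK for E-boxes and also responds to hormones and nutrients. It ranged from 105 to 171 CPM in WT with a median of 122, and from 80.4 to 135 CPM in A226Y with a median of 96.8. Of the 10 A226Y livers, 9 lay below the WT mean and 7 lay below every WT liver. The mean was 99.2 ± 16.9 CPM (SD, n = 10) against 129 ± 25.6 CPM (SD, n = 8), a log2 fold change of −0.37 (SE 0.11, edgeR adjusted p = 0.0347, two-sided exact permutation p = 0.00875). The call was lost without any one of A226Y animals 7, 11, 15, 23 and 32 or WT animals 13, 14, 24 and 33, with log2 fold changes from −0.36 to −0.30 and adjusted p from 0.0535 to 0.0817. It was also lost with library size scaling (adjusted p = 0.0590) and with surrogate variables, where the log2 fold change was −0.12 (adjusted p = 0.630). *Dbp* (chr7:45705088-45710203, plus strand), an activator of liver metabolism genes and the most strongly rhythmic output of the loop, ranged from 51.1 to 203 CPM in WT with a median of 116, and from 43.1 to 149 CPM in A226Y with a median of 109. The log2 fold change was −0.21 (SE 0.24, edgeR adjusted p = 0.594), and the genotypes overlapped. It was −0.05 without WT animal 24, −0.33 without WT animal 21 and −0.12 without A226Y animal 29. *Dbp* shares 539 exonic bases, 18.01% of its length, with *Sphk2* on the opposite strand and carries the same uncertainty as *Nr1d1*.

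Per kilobase of exon, the order of the members in WT livers was *Dbp* (39.2 ± 15.6 CPM per kb; SD, n = 8), *Bhlhe40* (27.3 ± 5.44), *Nr1d1* (15.0 ± 6.18), *Nr1d2* (14.5 ± 2.06), *Per1* (8.98 ± 2.77), *Per2* (6.48 ± 1.58), *Per3* (4.78 ± 0.662), *Clock* (1.69 ± 0.319), *Arntl* (0.322 ± 0.128) and *Npas2* (0.0237 ± 0.0122). Neighbours whose mean ± SD ranges overlapped were *Dbp* and *Bhlhe40*, *Nr1d1* and *Nr1d2*, *Per1* and *Per2*, and *Per2* and *Per3*. In these livers, taken at unknown hours, transcripts of *Clock* were thus in excess of those of *Arntl*, its partner. Both activators were below the members they switch on. The members peak at different hours, so this order cannot be extended to the whole day.

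The members were also compared by phase, to ask whether genes that peak in the same part of the day differed in the same direction between genotypes. Within the day and dusk groups the members took both signs. In the dawn group, 1 of 2 tested members was called (*Clock*; 14.3% of all tested genes were called), both values were positive and their median log2 fold change was 0.43, but *Arntl* lost its sign without animal 29. In the day group, 0 of 4 were called by edgeR, 1 by DESeq2 and 1 by limma-voom, 2 of 4 had an unadjusted p under 0.05 (29.6% of all genes), and the median was 0.02, with *Nr1d1* and *Nr1d2* positive and *Per3* and *Dbp* negative. In the dusk group, 1 of 3 was called (*Bhlhe40*), beside the same 14.3%, the median was −0.37, and *Per1* was positive while *Per2* and *Bhlhe40* were negative.

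Other genes of the clock were grouped by the same parts of the day. *Cry1* (a repressor partner of PER) and *Nfil3* (a repressor of D-box genes), which peak at night or near dawn, both had negative log2 fold changes, −0.20 (edgeR adjusted p = 0.554) and −0.24 (adjusted p = 0.517), whereas *Arntl* and *Clock* of the neighbouring phase had positive values. Single livers moved both: *Cry1* was at −0.06 (adjusted p = 0.875) without WT animal 21, and *Nfil3* was at −0.50 and passed the test (edgeR adjusted p = 0.0291) without A226Y animal 29 but not without animals 29 and 33 (−0.44, adjusted p = 0.0562). Of *Cry2*, *Bhlhe41*, *Ciart*, *Tef* and *Hlf*, which peak by day or near dusk, none of the 5 had an unadjusted p under 0.05 in the edgeR fit (29.6% of all genes), and their median was −0.002. The log2 CPM of each tested member was also centred on its mean over the 18 livers and averaged within a phase group for each mouse. The dawn group, here only *Arntl* and *Clock*, then had medians of 0.12 in A226Y and −0.33 in WT. The day group had 0.12 and 0.07, and the dusk group −0.06 and 0.14. Of the 2 dawn genes, *Clock* had a log2 fold change of 0.61 and *Arntl* one of 0.25. The dawn values thus contain the call on *Clock* and are no separate result. The ranges of the genotypes overlapped in all 3 groups, and no test was made over these averages. The peak hours of the genes within a group differ, and a part of collection time in any of these values was not tested.

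**Figure D2:**
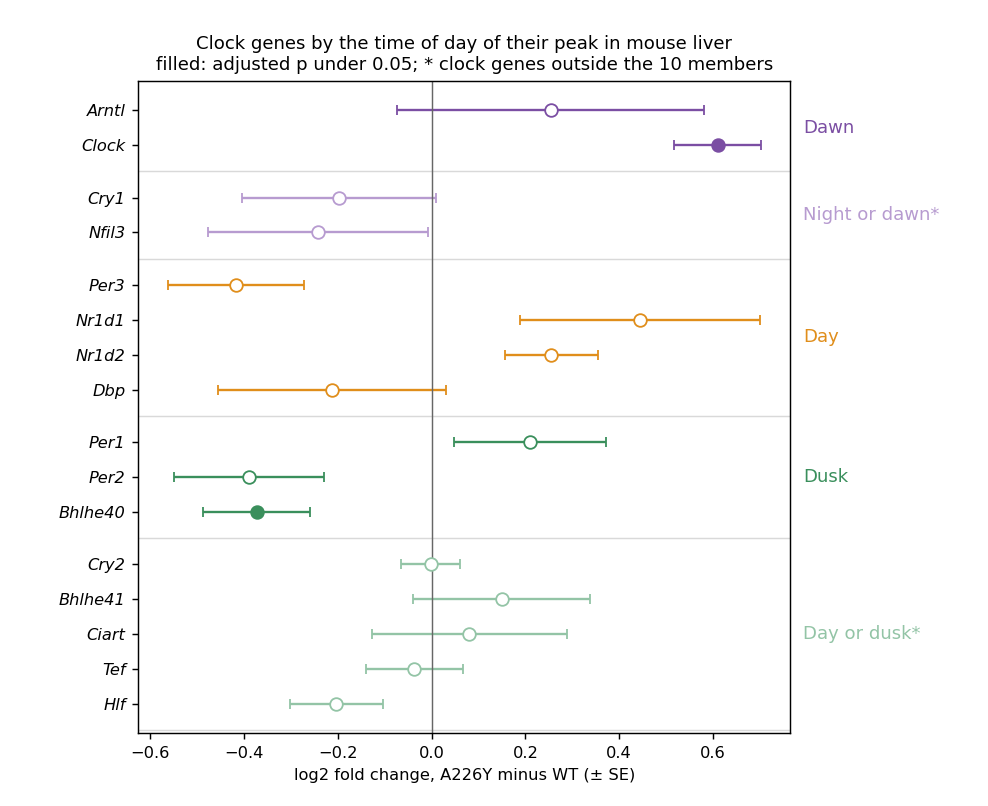
Log2 fold change, A226Y minus WT (horizontal axis; bars show the SE), of the 9 tested members and of 7 other clock genes marked with an asterisk, grouped by the hour at which each is highest in mouse liver. Filled points passed an adjusted p under 0.05: *Clock* at 0.61 and *Bhlhe40* at −0.37. Day and dusk genes lie on both sides of 0.

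The 15 other genes of the clock and its regulators gave 2 calls among the 14 tested, beside 14.3% of all genes, 1 higher (7.27%) and 1 lower (7.03%), with a median log2 fold change of 9.3e-05. *Rora* (RORα), an activator at the sites that REV-ERB proteins occupy, was called higher, at 82.0 ± 7.58 CPM in the 10 A226Y livers (SD) and 68.5 ± 6.36 CPM in the 8 WT livers (SD), a log2 fold change of 0.26 (SE 0.07, edgeR adjusted p = 0.0143). The call on *Rora* was lost with an offset for transcript length (0.14, adjusted p = 0.146) and with surrogate variables (0.21, adjusted p = 0.0830).

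*Fbxl21*, which encodes an F-box protein that binds CRY proteins, was the other call, at −0.54 (SE 0.17, edgeR adjusted p = 0.0410), from 4.16 CPM in A226Y and 6.06 CPM in WT. It was lost without any one of A226Y animals 7, 11, 22 and 32 or WT animals 4, 13, 14, 21, 24 and 28, with log2 fold changes from −0.57 to −0.48 and adjusted p from 0.0506 to 0.0906. It was also lost with library size scaling (−0.51, adjusted p = 0.0547), with the filter of 1 count (−0.54, adjusted p = 0.0529) and with surrogate variables (−0.35, adjusted p = 0.218). Of the CRY repressor genes themselves, *Cry2* was at −0.002 (adjusted p = 0.986), and *Cry1*, given above, did not pass either. The PAR-domain factor genes related to *Dbp* did not pass, with −0.04 for *Tef* (adjusted p = 0.845), which took the opposite sign at 0.02 without A226Y animal 29, and −0.20 for *Hlf* (adjusted p = 0.178).

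Of 10 liver genes with strong daily rhythms, 3 were called, beside 14.3% of all genes, 1 higher (7.27%) and 2 lower (7.03%), with a median of 0.08. With so few genes, nothing particular to the list is read from these counts. *Insig2*, which encodes a brake on the processing of SREBP lipid regulators and is a REV-ERB target, ranged from 90.9 to 143 CPM in WT and from 132 to 582 CPM in A226Y, where the highest liver was again animal 29. Of the 10 A226Y livers, 9 lay above every WT liver, and the log2 fold change was 1.13 (SE 0.23, edgeR adjusted p = 0.00423). It was 0.90 (adjusted p = 0.00197) without animals 29 and 33, and it remained past the threshold in all 29 other settings. *Elovl3*, a fatty acid elongase gene, was at −1.26 (SE 0.37, edgeR adjusted p = 0.0281), with 6 of the 8 WT livers above every A226Y liver and 1 below all of them, and the two-sided exact permutation test gave p = 0.0519. Its call was lost without WT animal 13, 14 or 21, with log2 fold changes from −1.23 to −0.995 and adjusted p from 0.0535 to 0.0770. It was also lost with limma-voom (−0.88, adjusted p = 0.193) and with surrogate variables (−0.10, adjusted p = 0.939).

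*Nampt*, the rate-limiting enzyme of NAD salvage, was at −0.32 (SE 0.10, edgeR adjusted p = 0.0450). This call was lost without any one of A226Y animals 5, 7, 11, 15, 18, 23 and 32 or WT animals 13, 14, 21, 24, 28 and 33, with log2 fold changes from −0.34 to −0.28 and adjusted p from 0.0508 to 0.0840. It was lost as well with RLE scaling (adjusted p = 0.0521), library size scaling (0.0747), the filter of 1 count (0.0591), surrogate variables (0.152) and without animals 29 and 33 (0.0768), again with negative values. Body temperature and glucocorticoids both set clock gene levels, and genes that answer to them were examined beside the members. Among genes responsive to body temperature, 0 of 5 tested were called in the main edgeR fit, beside 14.3% of all genes. DESeq2 and limma-voom each called 1. So did edgeR with library size scaling, without A226Y animal 5, WT animal 6 or WT animal 33, and without animals 29 and 33. At an unadjusted p under 0.05, 2 passed, beside 29.6% of all genes. Log2 fold changes were 0.33 for *Cirbp*, 0.46 for *Rbm3*, 0.24 for *Hspa1b*, 0.30 for *Hsph1* and 0.39 for *Hsp90aa1*. The list was not split by whether warmth or cold raises a gene, so the shared sign is not read as 1 response. Among 6 genes responsive to glucocorticoids, 1 was called by edgeR, beside 14.3% of all genes, while DESeq2 called 2 and edgeR called 3 without A226Y animal 29. Their values took both signs, 3 positive and 3 negative. The metallothionein genes *Mt1* and *Mt2* were at −0.84 (adjusted p = 0.207) and −0.66 (adjusted p = 0.442) and *Tsc22d3* at −0.11 (adjusted p = 0.563). The call was *Sgk1*, a kinase gene, at 0.62 (SE 0.15, edgeR adjusted p = 0.00935), with all 10 A226Y livers above the WT mean, and it was lost with surrogate variables (0.41, adjusted p = 0.229).

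How much a member varied between livers of one genotype differed widely among the 9 tested members. The SD of log2 CPM of *Arntl* was 0.78 in A226Y and 0.54 in WT, at percentiles 97.5 and 90.7 of all tested genes, whose median SD was 0.21 and 0.20. In A226Y this rested on animal 29: the highest liver was 7.33 times the lowest with it and 2.61 times without it, and the SD without it was 0.47. In WT the highest *Arntl* value was 3.06 times the lowest. *Nr1d1* and *Dbp* had SD values of 0.58 and 0.58 in A226Y, and of 0.58 and 0.44 without animal 29. In WT they were more variable than *Arntl*, with 0.63 and 0.61 (percentiles 94.1 and 93.6). *Clock* was among the steadier genes in A226Y, with an SD of 0.11 (percentile 9.84) and a highest liver 1.32 times the lowest. In WT its SD was 0.29 (percentile 69.9). *Per1* had an SD of 0.23 in A226Y and 0.53 in WT (percentiles 58.1 and 90.3), with WT animal 14 far below the rest, and 0.14 in A226Y without animal 29. *Per3* had an SD of 0.43 in A226Y and 0.21 in WT (percentiles 84.0 and 53.2), and 0.31 in A226Y without animal 29. These differences in spread between genotypes were not tested.

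**Figure D3:**
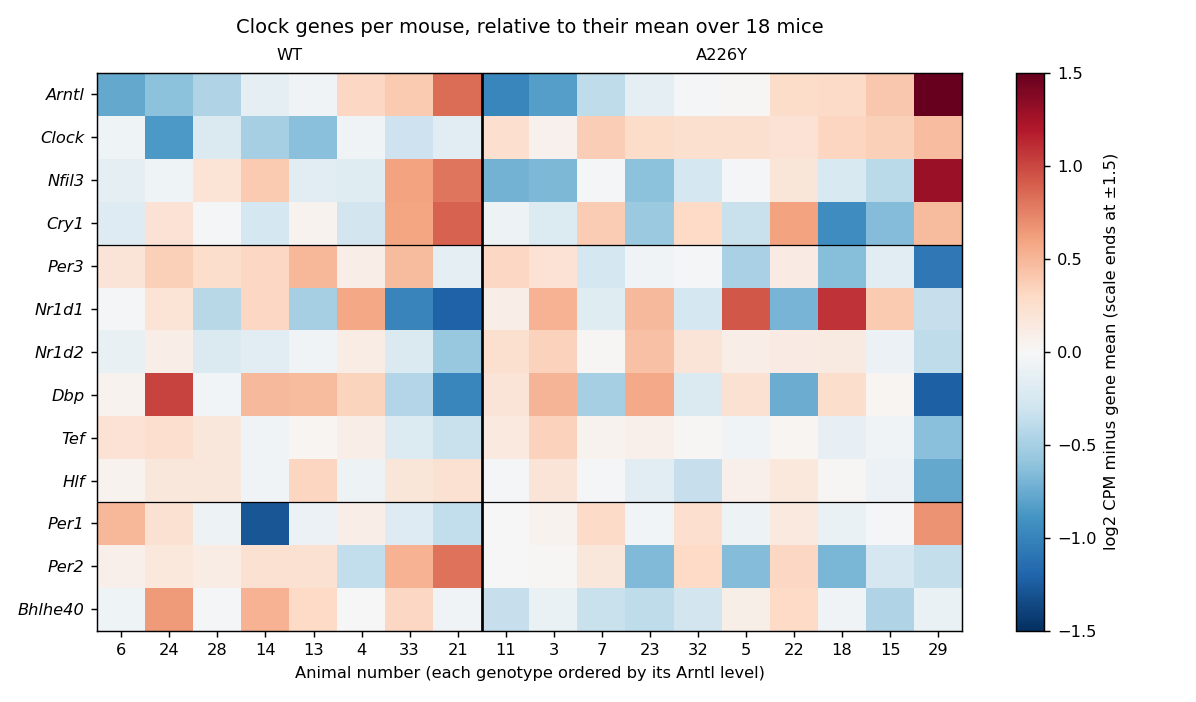
Log2 CPM of 9 members and of *Nfil3*, *Cry1*, *Tef* and *Hlf* in each mouse, relative to the mean of the gene over the 18 livers (colour, with the scale ending at ±1.5), for WT on the left and A226Y on the right. Mice are ordered by their *Arntl* level within a genotype, and black lines separate dawn and night, day, and dusk genes. A226Y animal 29 and WT animal 21, the highest for *Arntl* in their genotypes, are low for *Dbp*, *Nr1d2* and *Tef* and high for *Nfil3*.

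The level of *Arntl* was compared with that of the other members across the livers of each genotype, and no relation passed the correction over the 18 relations computed (9 members in each genotype). In the 10 A226Y livers, *Arntl* and *Per3* had r = −0.831 (permutation p = 0.00402, adjusted p = 0.0724) and rho = −0.709 (permutation p = 0.0275, adjusted p = 0.274). Without animals 11 and 29, the farthest from the median, r was −0.440. *Arntl* and *Nr1d2* had r = −0.814 (permutation p = 0.00818, adjusted p = 0.0736) and rho = −0.697 (permutation p = 0.0304, adjusted p = 0.274), and r was −0.533 without those 2 livers. Both relations thus rested in large part on the 2 farthest livers. *Arntl* and *Nr1d1*, of the same day group, had r = −0.239 (permutation p = 0.529, adjusted p = 0.560) and rho = −0.139 (permutation p = 0.705, adjusted p = 0.902), and r was −0.00589 without those 2 livers.

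In the 8 WT livers the strongest relation of *Arntl* by Pearson's r was with *Dbp*, at r = −0.667 (exact permutation p = 0.0700, adjusted p = 0.220) and rho = −0.548 (exact permutation p = 0.171, adjusted p = 0.547). Without WT animals 21 and 6, r was −0.600. By rank, *Per1* (rho = −0.667, exact permutation p = 0.0831, adjusted p = 0.499) and *Per2* (rho = 0.619, exact permutation p = 0.115, adjusted p = 0.517) had larger values, with r = −0.351 and 0.479. Without WT animals 21 and 6, r was −0.077 for *Per1* and −0.0311 for *Per2*. *Arntl* and *Dbp* in A226Y had r = −0.698 (permutation p = 0.0254, adjusted p = 0.138) and rho = −0.418 (permutation p = 0.231, adjusted p = 0.547), and r was −0.306 without animals 11 and 29. With *Clock*, its partner, *Arntl* had r = 0.715 in A226Y (permutation p = 0.0307, adjusted p = 0.138), with rho = 0.430 (permutation p = 0.219, adjusted p = 0.547) and 0.612 without those 2 livers, and r = 0.303 in WT (exact permutation p = 0.464, adjusted p = 0.560), with rho = 0.190 (exact permutation p = 0.665, adjusted p = 0.902) and 0.598 without animals 21 and 6.

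The genes whose pattern over the 18 livers was most like that of *Arntl*, after each genotype was centred on its own mean, were ranked among the 11940 tested genes that averaged 1 CPM or more. The most opposed gene of all was *Tef*, a D-box activator of the same family as *Dbp*, with r = −0.924 and rho = −0.851. It held that place without animal 29 as well, with r = −0.855. The next most opposed were *Clmn* (−0.875), *Pnpla8* (−0.856), *D130043K22Rik* (−0.853), *Lactb2* (−0.847), *Ces2a* (−0.845), *Tut4* (−0.824), *Mindy4* (−0.824), *Wee1* (−0.822) and *Slc2a2* (−0.817). The most similar were *Pelp1* (0.852), *H2-M3* (0.848), *Cldn14* (0.845), *Armc7* (0.842), *Tmed9* (0.840), *Traf3* (0.825), *Leo1* (0.825), *Nfkbie* (0.823), *Camk2d* (0.823) and *Hk2* (0.821). These lists depended in part on animal 29: without it, 3 of the 10 most similar and 4 of the 10 most opposed genes, *Tef* included, were still among the first 10 on their side. The r of the 10 most similar then ranged from 0.608 to 0.745 and their places reached down to 75, and the r of the 10 most opposed ranged from −0.855 to −0.613 with places down to 60. *Nfil3*, the repressor of D-box genes, followed at place 11 with r = 0.821, and at place 58 with r = 0.628 without animal 29. These correlations describe 18 libraries that also differ in depth, and no p is given for genes picked from so many.

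Among the members, *Per3* (−0.739), *Nr1d2* (−0.718) and *Dbp* (−0.672) were the most opposed to *Arntl* by this measure and stood at places 73, 109 and 229 from the negative end of the 11940 genes. Without animal 29 their r was −0.518, −0.537 and −0.518. *Nr1d1*, the other member of the day group, had r = −0.338 and stood at place 2517 from that end. *Clock* stood at 0.382, and *Per1*, *Per2* and *Bhlhe40* lay between −0.04 and 0.08, with *Per1* at −0.273 without animal 29. Since *Clock* did not overlap between genotypes, its A226Y livers exceeded the WT livers at every *Arntl* level, which is no separate check.

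**Figure D4:**
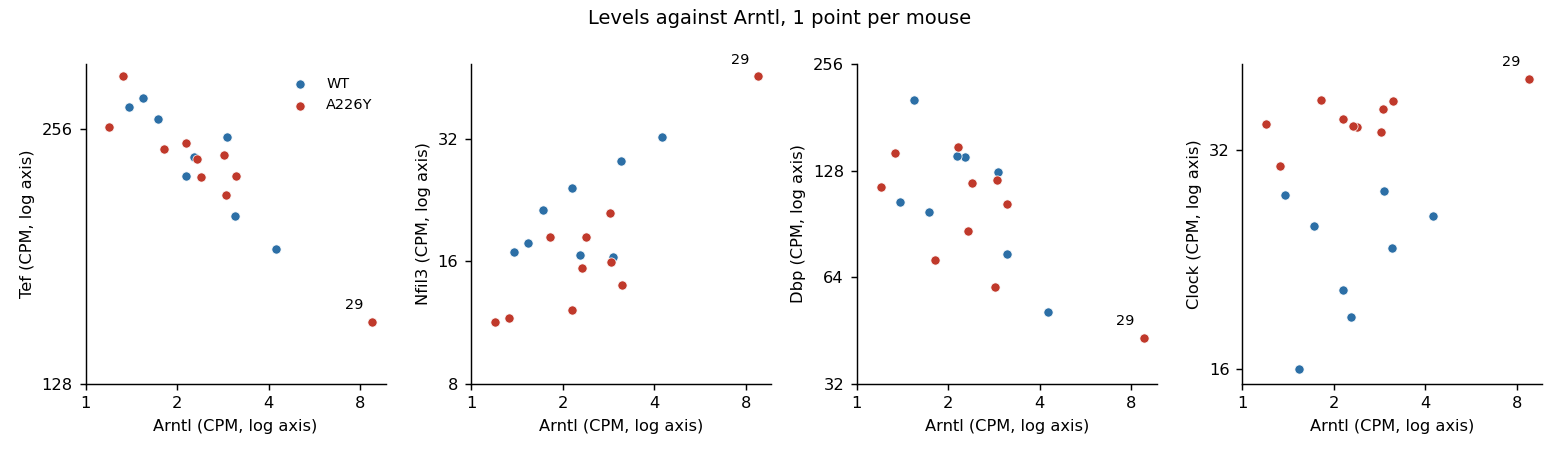
Level of *Tef*, *Nfil3*, *Dbp* and *Clock* (vertical axes, CPM on a log scale) against that of *Arntl* (horizontal axes, CPM on a log scale), with 1 point per mouse and A226Y animal 29 marked. *Tef* is lower in livers with more *Arntl*. *Dbp* tends to be lower as well, but its relation to *Arntl* passed the correction in neither genotype. The A226Y points for *Clock*, from 30.4 to 40.1 CPM, all lie above the WT points.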

How the data were processed

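Liver RNA of 18 mice was measured by short single-end RNA sequencing. For each mouse the authors deposited raw read counts, in whole numbers, for each Ensembl gene. The methods name RSEM with an Ensembl annotation on a build written GRCm37, while the submitters' processing notes list fastp, STAR, featureCounts and GRCm38, and the step that gave whole numbers and the strand setting are not given in the sources used here. Where exons overlap on opposite strands, reads can therefore be counted for either gene. Symbols (22291 of 22524 identifiers), positions and exonic lengths came from the GENCODE annotation of GRCm38, and motifs from RefSeq promoter windows. The GENCODE annotation need not be the one used for counting.

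A gene was tested where 50% or more of the mice of either genotype had 10 counts or more (13353 genes) with the quasi-likelihood test of edgeR 4.0.16 in R 4.3.3, with TMM scaling, no covariates and Benjamini-Hochberg adjustment over all tested genes. Each SE was derived from the fitted log2 change and the square root of its F statistic. Single members were also compared by a two-sided exact permutation test of log2 CPM (prior count 2) over all divisions of the mice into 10 and 8, without adjustment over the members. None of the 45 A226Y and 28 WT pairs of libraries agreed within sampling noise (lowest chi-square per degree of freedom 19.3), so each mouse counted as 1 replicate. Counting error was small except for *Npas2* and *Arntl*, and it sets no limit on the other members. The procedures were tested on simulated counts.

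The members, gene lists and phase groups were chosen with earlier results of these data known, from textbook roles and peak hours. The genes named are the members, list genes that were called or on which a sentence turns, *Rps2*, the markers, and the 10 genes most and the 10 least like *Arntl*. Alternatives were RLE, upper quartile and library size scaling, 2 other filters, limma-voom 3.58.1, DESeq2 1.42.0, a fit with 4 surrogate variables (sva 3.50.0), offsets for length or GC content, leaving out each mouse in turn, and leaving out A226Y 29 with WT 33, the last chosen after seeing the data. One gene of the fixed lists is not reported here.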

Additional observations from a re-analysis of the deposited data

Results flagged for a closer look

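Among the 18 sets of values examined (9 members in each genotype), 2 had a liver far from the rest, and both were A226Y animal 29. Chance flags about 1 in 20 such sets. For *Arntl* this liver was at 8.79 CPM and the next at 3.12 CPM, and on the log2 CPM scale (prior count 2), on which the livers were compared, the gap was 0.524 of the whole range, above the critical value of 0.466 for 10 mice. For *Per1* it was at 84.6 CPM and the next at 64.9 CPM, a gap of 0.501 of the range on the same log2 scale. The same liver had the lowest A226Y values of *Dbp* (43.1 CPM), *Per3* (18.1 CPM), *Nr1d2* (65.7 CPM), *Tef* (151 CPM) and *Hlf* (53.6 CPM) and the highest of *Clock* (40.1 CPM), *Nfil3* (45.5 CPM) and *Insig2* (582 CPM). It was not extreme in A226Y for *Nr1d1* (40.1 CPM), *Per2* (24.8 CPM), *Bhlhe40* (103 CPM) or *Cry1* (22.2 CPM). Beyond the clock, it had the highest A226Y values of *Mt1* (1020 CPM), *Mt2* (779 CPM), *Tat* (5811 CPM) and *Fkbp5* (309 CPM), and their part in its clock gene values was not tested. WT animal 33 was higher still for *Mt1* (1293 CPM) and *Mt2* (847 CPM). That liver was lower for *Tat* (1445 CPM) and *Fkbp5* (252.5 CPM), and its *Arntl* was at 3.11 CPM.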

How the results depend on the processing

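No paired analysis was possible because the animal numbers are not shared between the genotypes. The higher level of *Clock* kept its call in all 29 other settings. The number of genes called was 248 with surrogate variables, and it ranged from 1255 (without WT animal 14) to 2560 when each mouse was left out. The number of members called was 1 with surrogate variables and ranged from 1 to 4 when each mouse was left out. It was 1 without A226Y animal 7, 15, 23 or 32 or WT animal 13, 14, 24 or 33, and 4 without A226Y animal 29. In the day group 1 or 2 members were called in 9 of the 29 other settings, and in the dusk group none in 11 of them. The log2 fold change of *Arntl* ranged from −0.119 (without A226Y animal 29) to 0.42 (without WT animal 21) when each mouse was left out, and it turned to −0.058 without A226Y 29 and WT 33, and that of *Per1* to −0.164 with surrogate variables. *Cry2*, near 0, lay between −0.036 (without WT animal 21) and 0.026 (without WT animal 33) when each mouse was left out, and was positive with library size scaling (0.046), surrogate variables (0.000112), a GC offset (0.053) and without A226Y 29 and WT 33 (0.015). *Tef* lay between −0.084 (without WT animal 21) and 0.018 (without A226Y animal 29), and turned to 0.00217 with library size scaling and 0.00775 with a GC offset. In A226Y livers the rank correlation of *Arntl* was −0.00606 with *Npas2* and −0.0182 with *Per1*, against r = 0.257 and 0.628. The causes were not tested. *Per2*, *Per3*, *Nr1d1*, *Nr1d2*, *Dbp* and *Bhlhe40* kept their direction in all 29 other settings. One liver per mouse, unknown collection hours, a mosaic genotype and unstated strand limit these values, and depth limits *Npas2* and *Arntl*.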
